A study of Drosophila melanogaster with 3 samples.

Results

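The oxidative phosphorylation genes of Drosophila melanogaster were examined for binding of the protein encoded by CG14050 in a ChIP-seq experiment. ChIP-seq sequences the DNA that is recovered with a protein. Members were the protein-coding genes on the chromosome arms whose symbol starts with ND- (complex I), Sdh (complex II), UQCR- (complex III), COX and a digit (complex IV) or ATPsyn (complex V). This rule gave 88 of 13945 genes, with 40 in complex I, 8 in complex II, 9 in complex III, 16 in complex IV and 15 in complex V. By symbol, 20 of them were paralogs of another member, 1 was an assembly factor (Sdhaf3) and 67 were primary subunit genes. The rule used symbols only and no measured value.

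The experiment held 1 group of 3 biological replicates. Each was a collection of whole embryos 0 to 24 hours old, of a transgenic line with CG14050 fused to eGFP (enhanced green fluorescent protein), and the precipitation used an antibody against GFP. The sonicated fragments were 200 to 800 bp long. Whole embryos mix all cell types and a day of development, every sample carries the transgene, and no control library was analysed here. A peak therefore cannot be told apart from a region that any such precipitation recovers, and no comparison of conditions was possible. The labels do not say how far the collections were independent, so a spread between them may be partly technical.

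Oxidative phosphorylation is the final step of respiration in the mitochondrial inner membrane. Complexes I and II pass electrons from NADH and succinate to ubiquinone, complex III passes them on to cytochrome c, and complex IV hands them to oxygen. Complexes I, III and IV pump protons, and complex V, the ATP synthase, uses the resulting gradient to make ATP. The members are nuclear genes, and their products work beside a small set of subunits encoded in mitochondrial DNA. Flies keep duplicates of many such nuclear genes, several of which are known for expression in the testis.

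A gene was called bound if a peak summit lay within 500 bp of one of its transcription start sites (TSSs). The thresholded lists held 2155, 2433 and 2282 peaks in replicates 1, 2 and 3, and the conservative list, made across replicates, held 3515. Each list is part of a longer list of ranked regions and holds only regions with an irreproducible discovery rate (IDR) of at most 0.01. The conservative list lacks some regions that also passed, since it holds 3515 of 3615, so ranks in it and among all ranked regions differ. The IDR of a region estimates the share of regions at or above its rank that would not recur between the lists compared. Which replicates the conservative list compared was inferred from peak coordinates and signals. Of the peaks on its compared sides, 63.8% matched a ranked region of replicate 2 on one side and 66.9% one of replicate 3 on the other, while 0% matched replicate 1. By this inference, which leaves the other peaks unmatched, the separate peaks of replicate 1 did not enter the choice of conservative peaks.

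The DNA under 6 conservative summits is shown because it spans what was found at member promoters. ND-ASHI had the strongest member peak, and ND-51 and COX5A were bound in all 3 replicates with summits between a pair of divergent TSSs. ATPsynCF6 had its summit almost midway between such a pair, and COX5B and COX6B had the most GC-rich summits. Each window holds 81 bases of the plus strand of the RefSeq genome sequence (dm6), centred on the summit. Capitals mark matches to the motifs described further on, on either strand. They match by letters alone, at any distance from a TSS: the TATA box in ND-ASHI, the initiator core in COX5A, the E-box in ATPsynCF6 and the BEAF unit in COX5B. In COX6B the capitals are a pair of BEAF units, the second of which runs into a GAGA site, and the letters named motif 7 here. ND-51 had none of these motifs in its window. Within 50 bp of the summit, the letters of the TATA box were found at 23.2% of all 1605 promoter peaks of the list. Those of the initiator core were found at 15.9%, of the E-box at 3.43% and of the BEAF unit at 18.2%. The windows are chrX:6679345-6679425 for ND-ASHI, chr2L:6062829-6062909 for ND-51, chr3R:11819454-11819534 for COX5A, chr3R:23356134-23356214 for ATPsynCF6, chr2L:6557491-6557571 for COX5B and chrX:19744316-19744396 for COX6B.
ND-ASHI: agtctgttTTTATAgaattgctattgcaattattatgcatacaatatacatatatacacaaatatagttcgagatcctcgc
ND-51: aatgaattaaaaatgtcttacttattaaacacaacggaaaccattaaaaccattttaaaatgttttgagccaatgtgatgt
COX5A: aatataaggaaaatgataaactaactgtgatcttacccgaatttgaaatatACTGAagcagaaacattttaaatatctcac
ATPsynCF6: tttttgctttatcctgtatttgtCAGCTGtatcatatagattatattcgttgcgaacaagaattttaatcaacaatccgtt
COX5B: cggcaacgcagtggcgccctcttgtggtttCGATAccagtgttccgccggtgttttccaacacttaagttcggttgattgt
COX6B: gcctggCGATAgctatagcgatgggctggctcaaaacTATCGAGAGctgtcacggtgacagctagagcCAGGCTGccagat

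The share of members bound lay near that of protein-coding genes in general. In the conservative list 11 of 88 members were bound, or 12.5%, against a background of 14.3% of all genes. The replicate lists held 7 members in replicate 1 (7.95%, background 9.53%), 10 in replicate 2 (11.4%, background 11%) and 10 in replicate 3 (11.4%, background 10.7%). The mean share was 10.2% ± 1.97 of members and 10.4% ± 0.778 of all genes (SD, n = 3 replicates), a difference smaller than either spread. All 3 replicates shared 5 bound members (5.68%, background 6.87%), and 14 were bound in at least 1 replicate (15.9%, background 14.4%). As shares near the background, these counts are no result about the members.

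Sets of genes for other mitochondrial and translational machines had higher shares in the same lists. Genes of mitochondrial ribosomal proteins were bound in 15 of 73 cases in the conservative list (20.5%), and those of cytosolic ribosomal proteins in 52 of 88 (59.1%). The members' replicate shares of 7.95%, 11.4% and 11.4% lay below each of the shares for mitochondrial ribosomal protein genes, 15.1%, 16.4% and 13.7%, and for cytosolic ones, 52.3%, 42% and 51.1%. These differences were not tested, since genes are not replicates and 3 replicates allow no exact p under 0.05.

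The 5 complexes differed in their counts, but their small sizes leave wide intervals. Complex I had 6 of 40 members bound in the conservative list (15%, Clopper-Pearson 95% interval 5.71 to 29.8%), and complex IV had 3 of 16 (18.8%, 4.05 to 45.6%). Complex V had 2 of 15 (13.3%, 1.66 to 40.5%). None of the 8 members of complex II and none of the 9 of complex III was bound, which allows shares of up to 37.5% and 33.3%. All of these intervals include the background of 14.3%, so a difference between complexes was not detectable at these sizes. Intervals and limits cover counting error only.

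Over replicates 1, 2 and 3, complex I had 5, 6 and 7 bound members (15% ± 2.5, SD, n = 3), against backgrounds of 9.53%, 11% and 10.7%. Complex IV had 2 in each (12.5%), which like the shares of complex I lies above each background, but they were different genes apart from COX5A, with COX7C in replicate 1, COX8 in replicate 2 and COX5B in replicate 3. Complex V had 0, 2 and 1 (6.67% ± 6.67). Complexes II and III had none in any replicate, although 4 members of each had a ranked region within 500 bp of a TSS in the conservative list's ranked regions. Outside complex I, 6.25% ± 2.08 of 48 members were bound per replicate.

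**Figure D1:**
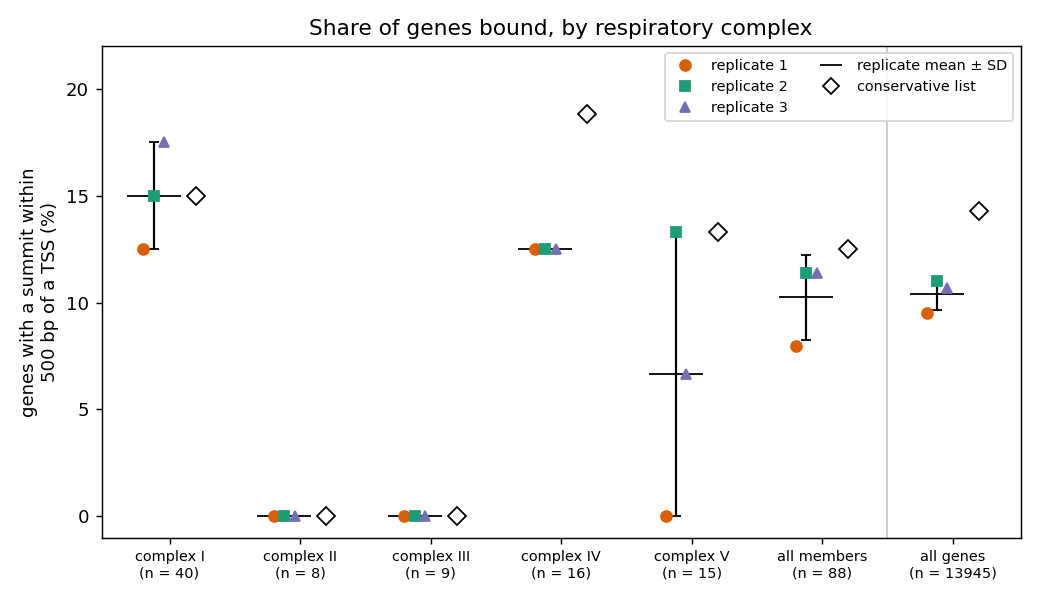
Share of genes with a summit within 500 bp of a TSS (percent, vertical axis) in complexes I to V, in all 88 members and in all 13945 genes. Coloured symbols are the 3 replicates, bars their mean ± SD, and diamonds the conservative list; complex I lies between 12.5% and 17.5% in the replicates and complexes II and III lie at 0 in each list shown.

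All 11 bound members were primary subunit genes, and none of the 20 paralogs was bound in the conservative list or in any replicate. The primary genes were bound in 11 of 67 cases (16.4%, 8.49 to 27.5%) and in 13.4% ± 2.59 per replicate. For the paralogs 0 of 20 allows a share of up to 15% (Clopper-Pearson upper limit 16.8%), which still includes the background of 14.3%. A further 4 primary genes have a symbol that ends in L without a partner symbol (COX6AL, COX6AL2, COX6CL and ATPsynepsilonL), and with them, a grouping chosen after seeing the data, 0 of 24 were bound (Clopper-Pearson upper limit 14.2%, close to the background). In the conservative list's ranked regions, 8 of 20 paralogs had a region near a TSS (40%), against 36 of 67 primary genes (53.7%) and 53.3% of all genes. Of the 20 paralogs 2 had a divergent neighbour, against 33 of the 67 primary genes and 26.4% of all genes. This feature goes with binding in all genes, which the definitions used can in part produce (described further on). Its part in the paralogs' count was not tested.

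Replicate 1 stood apart in its ranked regions at members. In replicate 1 a ranked region lay within 500 bp of a TSS of 54 of 67 primary genes (80.6%), against 33 (49.3%) in replicate 2 and 34 (50.7%) in replicate 3. The share of all genes was 58.6%, 50.9% and 51.3% in the same order of replicates. The paralogs did not share this, with 35%, 35% and 40%. Of the 62 members with a region in replicate 1, 7 were called (11.3%), against 10 of 41 in replicate 2 (24.4%) and 10 of 42 in replicate 3 (23.8%). Over all genes with a region the called share was 16.3%, 21.6% and 20.9%, likewise lowest in replicate 1.

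Of complex I, 4 bound members were bound in all 3 replicates. ND-ASHI, an accessory subunit of the membrane arm in mammals, had the strongest member peak (chrX:6679279-6679477), with a signal of 455.17 and rank 222 of 3515. Signal is how the authors expressed the height of a peak, on an unstated scale, so ranks are used for comparisons. Among all ranked regions of a replicate (49504, 48710 and 46992 in replicates 1, 2 and 3), ND-ASHI ranked 213, 190 and 283. The IDR of ND-ASHI was 1e-05, the lowest value given, in each of them.

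ND-MWFE, a small membrane-arm subunit, had its conservative peak on arm 2R with a signal of 331.72 (rank 399). Its replicate ranks were 744, 417 and 308. ND-24 and ND-51 encode the subunits that form the NADH-oxidising tip of complex I in mammals, with ND-51 carrying the flavin, and both were bound in all 3 replicates. ND-24 (chrX:17632020-17632349) had a conservative signal of 212.99 (rank 879) and replicate ranks of 723, 773 and 1536. ND-51 (chr2L:6062704-6063033) had a signal of 167.75 (rank 1277) and replicate ranks of 1010, 1552 and 1461. ND-24 and ND-51 were thus called in each list, below ND-ASHI in all of them, and ND-24 lay above ND-MWFE in replicate 1.

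The other bound complex I members were called in 2 of 3 replicates. ND-42, an accessory subunit (chr3R:22027246-22027575, signal 104.67, rank 2426), ranked 4367, 4334 and 1515, and failed in replicate 1 with an IDR of 0.144. ND-B17, an accessory subunit of the membrane arm (chr2L:15751047-15751376, signal 97.101, rank 2632), ranked 2590, 2362 and 4708, and failed in replicate 3 with an IDR of 0.077. ND-23 and ND-B22 were each called in replicate 3 alone. ND-23, whose mammalian counterpart carries iron-sulfur clusters, had an IDR of 0.00936 there and one of 0.0193 in the conservative ranked regions, where it did not pass. ND-B22 had an IDR of 0.0079 in replicate 3 and of 0.0296 in replicate 1, with no region near its TSSs in replicate 2.

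In complex IV, COX5A (chr3R:11819329-11819658), a nuclear subunit on the matrix side, had a conservative signal of 204.23 (rank 942) and replicate ranks of 991, 843 and 1632. COX5A passed in each replicate. COX5B, a zinc-binding subunit in mammals (chr2L:6557366-6557695, signal 110.52, rank 2262), ranked 2890, 4868 and 1496, and passed in replicate 3 alone, with IDRs of 0.0184 and 0.762 in replicates 1 and 2. COX6B, on the intermembrane side (chrX:19744191-19744520, signal 95.911, rank 2660), passed in no replicate, with IDRs of 0.118, 0.0622 and 0.0105. COX6B is the only member bound in the conservative list and in no replicate. COX7C and COX8, small membrane subunits, each passed in 1 replicate. COX7C ranked 2317, 20686 and 25547, and COX8 ranked 30251, 2434 and 7685, so each rests on a single library.

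In complex V, ATPsynCF6 encodes coupling factor 6 of the stalk that holds the catalytic head in place (chr3R:23356009-23356338). ATPsynCF6 had a conservative signal of 145.15 (rank 1585) and replicate ranks of 3065, 1783 and 1238, failing in replicate 1 with an IDR of 0.0322. ATPsynE, subunit e of the membrane part (chr3R:14326796-14327125, signal 117.5, rank 2067), ranked 3111, 1922 and 4559 and passed in replicate 2 alone. No member of complex V was called in all 3 replicates. Among members bound nowhere, ND-MNLL of complex I had the highest-ranked region of the conservative ranked regions (rank 4703 of 63709, IDR 0.0416).

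**Figure D2:**
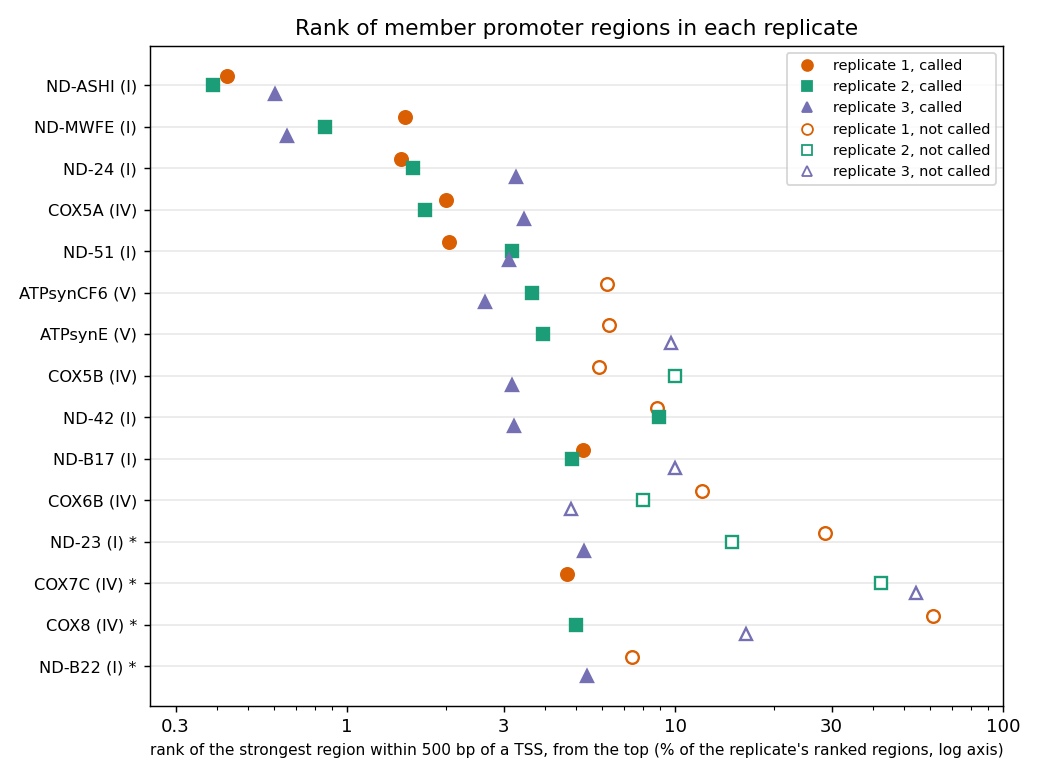
Rank of the strongest region within 500 bp of a TSS as a percent of each replicate's ranked regions (log axis, left is stronger) for the 15 members bound in the conservative list or a replicate. Filled symbols passed the replicate's threshold, an asterisk marks a member outside the conservative list, and the complex is in brackets; ND-ASHI stays within the top 0.602% in each replicate while COX8 spans 5% to 61.1%.

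Over the bound members, peak heights were those of an ordinary promoter peak. The conservative member signals ran from 95.91 to 455.2 with a median of 145.2, against a median of 144.7 over all 1605 promoter peaks of that list. The median percentile of the members among promoter peaks was 50 in the conservative list (range 21.7 to 91.1), and 51.8, 30.6 and 31.7 in replicates 1, 2 and 3. In replicates 2 and 3 the median member thus ranked below the middle of the promoter peaks, and in replicate 1 near it. Members near the 500 bp limit were COX5B (269 bp) and ND-42 (298 bp) inside it and ATPsynD (824 bp), ND-B14 (1310 bp), ND-39 (1549 bp) and ND-SGDH (1644 bp) outside. For 50 members no conservative summit lay within 5000 bp. The share over all genes was not computed, so this count is no result about the members.

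Most bound members had a neighbour that starts close by on the opposite strand. A divergent neighbour is a protein-coding gene on the other strand whose TSS lies upstream of the member's first TSS by at most 500 bp. Of the 11 bound members 9 had one (81.8%), against 26 of 77 unbound members (33.8%). ND-ASHI and ND-B17 were the bound members without one. Among all genes, 50.8% of the 1998 bound ones and 22.4% of the unbound ones had one. In terms of binding, 9 of 35 members with a divergent neighbour were bound in the conservative list (25.7%) and 2 of 53 without (3.77%). The shares over all genes were 27.5% with and 9.59% without a divergent neighbour, in the same direction as in members. The call and the definition of a neighbour use the same distance of 500 bp. A summit in a shared promoter counts for both genes, which by itself can raise the share with a neighbour.

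The same held in each replicate. The share of members bound was 11.4%, 22.9% and 22.9% with a divergent neighbour in replicates 1, 2 and 3, against 5.66%, 3.77% and 3.77% without (means 19% ± 6.6 and 4.4% ± 1.09, SD, n = 3). Over all genes the means were 20.1% ± 2.34 with and 6.93% ± 0.225 without. The groups did not overlap over replicates in either set. The member counts were small, with 4 of 35 against 3 of 53 in replicate 1. Complexes I, IV and V had 17 of 40, 7 of 16 and 8 of 15 members with a divergent neighbour, while complexes II and III had 1 of 8 and 2 of 9. Of all genes 26.4% had one.

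**Figure D3:**
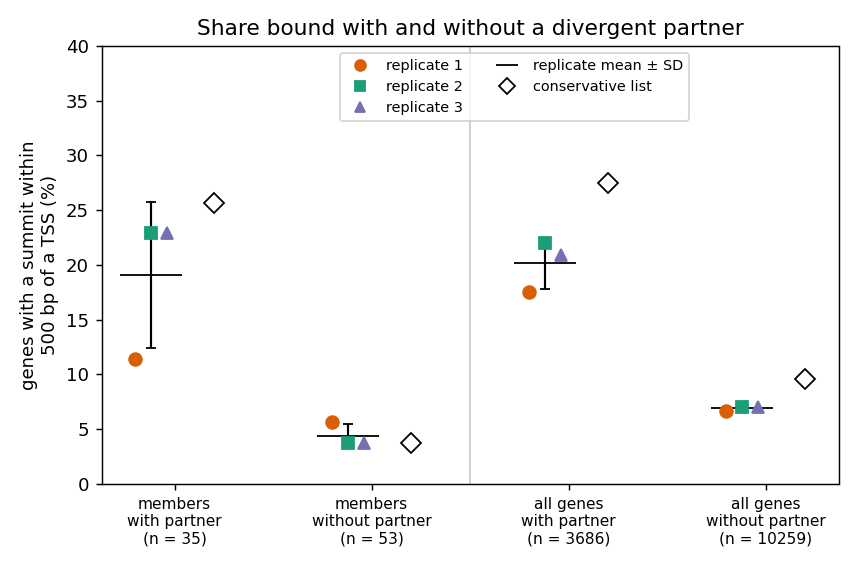
Share of genes with a summit within 500 bp of a TSS (percent, vertical axis) for members with and without a divergent neighbour, and for all genes with and without one. Symbols are the 3 replicates, bars their mean ± SD, and diamonds the conservative list; in each replicate members with a neighbour (11.4% to 22.9%) lie above those without (3.77% to 5.66%).

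Since a summit in a shared promoter counts for both genes, most of these peaks cannot be assigned to the member. In 10 of 11 cases the summit lay within 500 bp of another gene's TSS as well (90.9%, against 56.2% of all bound genes). The member's own TSS was the nearest in 5 cases (45.5%, against 74.7% of all bound genes). These were ATPsynE, COX6B, ND-24, ND-51 and ND-B17, of which ND-B17 alone had no other TSS in reach. Of the members bound in all 3 replicates, ND-24 alone had its own TSS nearest to the summit in each of them. Counted by the nearest TSS, 5.68% of members and 10.7% of all genes were bound in the conservative list.

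A pair of the neighbours, Cchl and Fum1, are also genes of mitochondrial metabolism. Unbound members had divergent neighbours of mitochondrial function too, such as the citrate synthase gene kdn and mRpL55, a mitochondrial ribosomal protein gene. ND-42 shared its summit with Cchl, which encodes the lyase that attaches heme to cytochrome c, and the summit lay 298 bp from the ND-42 TSS and 69 bp from that of Cchl. In ND-51, ND-ASHI, ND-MWFE, COX5A, COX5B and ATPsynCF6 the summit lay between the nearest TSS of the member and that of the gene opposite. The summit at ND-ASHI lay 267 bp from its TSS and 255 bp from that of Fum1, the fumarase of the tricarboxylic acid (TCA) cycle. Further neighbours were TppII (tripeptidyl-peptidase II) 19 bp from the summit at ND-MWFE, glo, an RNA-binding protein, 74 bp from that at COX5A, and IFT52, a protein of ciliary transport, 29 bp from that at COX5B. ATPsynCF6 lay opposite Sec13, a coat protein of secretory vesicles and the nuclear pore, with its summit 110 bp from the ATPsynCF6 TSS and 104 bp from that of Sec13. The nearest neighbours of ND-24, ND-51 and ATPsynE were corolla, CG13994 and Afti. COX6B and CG18809 start at the same base on the same strand, so their binding is a single value. The divergent neighbour of COX6B was CG33932.

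**Figure D4:**
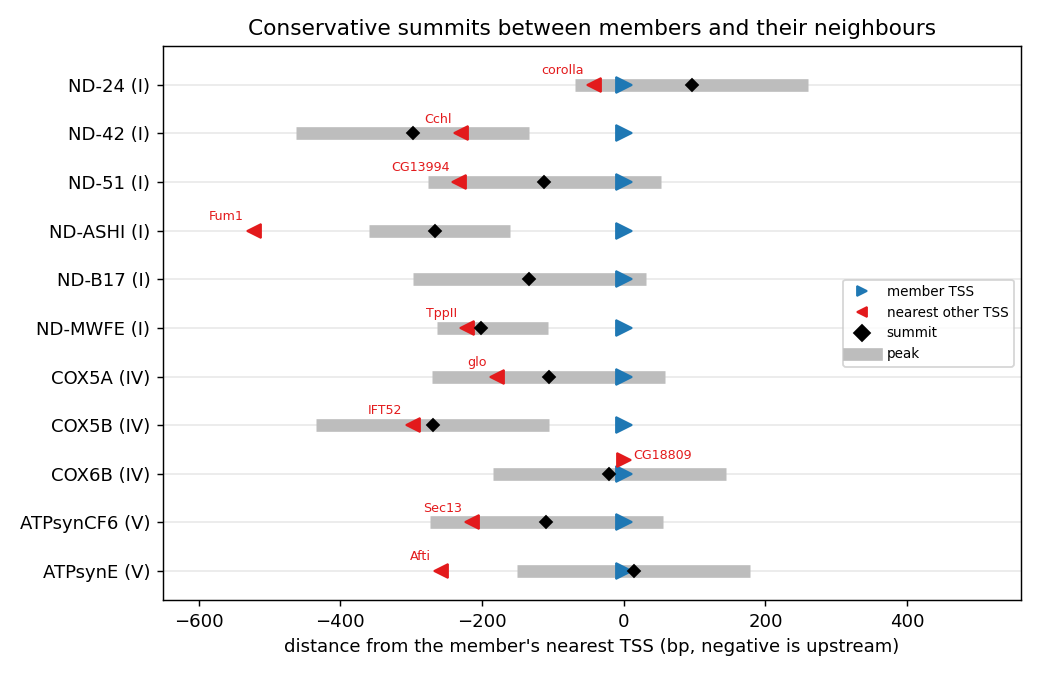
Position of the conservative summit (black diamond) and peak (grey bar) relative to the member's nearest TSS (blue, at 0), with the nearest TSS of another gene (red) within 500 bp of the summit. Distances are in bp along the direction of the member; left-pointing red triangles are genes on the opposite strand, and in 6 members the red TSS is nearer to the summit than the blue one.

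The summits lay 14 to 298 bp from the member's TSS, with a median of 112 bp. By the annotation of any gene at that base, 5 were intergenic, 4 in an intron and 2 in a 5′ UTR (at ATPsynE and ND-42). At ND-42, ND-ASHI and ND-MWFE the summit lay upstream of the member, so the UTR or intron there belongs to another gene. Peaks of 330 bp made up 9 of the 11, a fixed width with the summit at its centre, so their position adds nothing to the peak edges. The narrower ones were ND-ASHI (199 bp) and ND-MWFE (157 bp), the pair with the highest signals. In the conservative list, members were bound on arms 3R (4 of 20, all genes 14.4%) and 2L (3 of 16, all genes 15%). They were also bound on X (3 of 13, all genes 13.3%) and 2R (1 of 17, all genes 13.7%). On chromosome 4, 0 of 2 members were bound (all genes 3.75%). None of the 20 on 3L was bound in that list (Clopper-Pearson upper limit 16.8%), on an arm where 15.4% of all genes were, and COX8, on 3L, was bound in replicate 2.

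The DNA at member summits was mostly AT-rich. Within 50 bp of the summit the median GC content was 28.7% in the 11 member peaks and 31.7% in all 1605 promoter peaks. It was 25.7% at ND-51, 28.7% at COX5A and at ATPsynCF6 and 30.7% at ND-ASHI. COX5B and COX6B stood apart with 52.5% and 55.4%, while the other 9 lay between 21.8% and 35.6%. Both belong to complex IV, and neither was called in more than 1 replicate. COX5A, of the same complex, was called in all 3 replicates at 28.7%, and ATPsynE, also at 28.7%, was called in 1.

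Motifs known from fly promoters were counted in the window of 250 bp before to 50 bp after a TSS, on both strands. In bound genes this was the TSS nearest the summit and in unbound genes the first TSS, so their windows were chosen differently. The DRE, TATCGATA, the site of the promoter factor Dref, was in none of the 11 bound members' windows, in 9 of the 77 unbound ones (11.7%) and in 9.18% of all genes. Motif 1, GGTCACAC, a core promoter element, was in 3 bound members (COX5B, ND-B17 and ND-MWFE), in 12 unbound ones (15.6%) and in 7.5% of all genes. Motif 6, GGTATTTT, was in COX5B and ND-B17, in 8 unbound members and in 5.14% of all genes. The letters CAGCCTG, named motif 7 here, were in COX6B, in 4 unbound members and in 1.95% of all genes. These letters were not compared with the published consensus of motif 7, so the name is a label only. With so few bound members these counts are descriptions, and a missing match says only that these letters are not in the window.

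The other motifs ranged from rare to common. The E-box CAGCTG was in 4 bound members (ATPsynCF6, ND-42, ND-51 and ND-B17), 17 unbound members (22.1%) and 17.7% of all genes. The TATA box TATAAA was in 7 bound and 42 unbound members and 45.8% of all genes, and the initiator core TCAGT in 6, 27 and 51.7%. CGATA, the repeat unit bound by the insulator protein BEAF, which the DRE also contains, was in 6 bound and 39 unbound members and 47% of all genes. GAGAG, the site of the GAGA factor, was in COX6B alone of the bound members, in 18 unbound ones (23.4%) and in 30.1% of all genes. GCCAT, the core of the Polycomb-recruiting factor Pho, was in 2, 23 and 41.2%, CCGGAA (Ets factors) in 1, 3 and 6.74%, and TGACGT (ATF factors) in 3, 6 and 6.73%. GCGCATGC, the site of NRF-1 and its fly relative Ewg, factors known in mammals for control of respiratory genes, was in none of the 88 members and in 1.06% of all genes.

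Genes beside the members in the same pathway were also read from the lists. Of 12 other subunits and carriers, 2 were bound, Cyt-c-d and blw (16.7%, background 14.3%). Both were bound in all 3 replicates (background 6.87%). Cyt-c-d encodes a cytochrome c, which carries electrons from complex III to complex IV, and blw the alpha subunit of the ATP synthase. Cyt-c-p, also a cytochrome c gene among the 12, was bound in none of these lists. Cyt-c-d had a signal of 690.42 (rank 93 of 3515) and ranked 77, 82 and 112 in the thresholded lists of replicates 1, 2 and 3. Its summit lay 381 bp from the TSS, in an intron. The gene blw had a signal of 325.3 (rank 413) and ranked 480, 592 and 319. Cyt-c-d was thus higher than the highest member in each list, and blw lay below ND-ASHI in each.

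Of 16 genes of the TCA cycle and pyruvate dehydrogenase found in the annotation, 5 were bound in the conservative list (31.2%, background 14.3%), and 5, 3 and 5 in replicates 1, 2 and 3, a difference from the background that was not tested. They were Fum1, Idh3b and Idh3g (subunits of isocitrate dehydrogenase), Pdhb (a subunit of pyruvate dehydrogenase) and mAcon1 (aconitase). Idh3g had a signal of 499.59 (rank 177) and was bound in all 3 replicates, as was Fum1, whose peak is that of ND-ASHI. Idh3b and mAcon1 were bound in replicates 1 and 3, and Pdhb in replicates 2 and 3. Scsalpha1, outside the conservative list, was bound in replicate 1 alone. Of 12 genes of mitochondrial DNA upkeep and transcription, 3 were bound in the conservative list (25%, background 14.3%), likewise not tested. Whether the summits at these pathway genes lie nearer to the TSS of another gene was not examined. SLIRP2, related to an RNA-binding protein of mammalian mitochondria, had a signal of 971.97 (rank 40) and ranked 44, 38 and 41 in the replicates. The gene mtSSB, which encodes the mitochondrial single-strand DNA-binding protein, had 205.66 (rank 934), and SLIRP1 had 156.66 (rank 1423). All 3 replicates held mtSSB, while SLIRP1 was bound in replicates 1 and 2 but not in replicate 3.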

How the data were processed

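ChIP-seq peak lists of 3 biological replicates (1 group) were used as the authors deposited them: per replicate a ranked and a thresholded list, and 4 such pairs made across replicates, of which 1 is called conservative. Coordinates are dm6 per the labels. The aligner and peak caller are not named in the sources used here, and neither is the read depth. The deposited signal is the authors' peak height, of unstated scale, and was ranked only within a list. The deposited −log10 IDR was converted to an IDR. The scores deposited beside each ranked region, the signals of the matched peaks, were used only to find which replicates were compared. The summit offset deposited with each peak gave summit positions. From the values, all thresholded peaks had an IDR of at most 0.01.

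Peaks were joined to TSSs of protein-coding genes of Ensembl BDGP6.54 (release 115) on the 6 chromosome arms. On each arm 0 peak ends lay past the RefSeq sequence, which was used for base composition and motifs. Python 3.11.15, numpy 2.4.6, pandas 2.3.3 and scipy 1.17.1 were used. The gene assignment was checked on simulated peaks. Spreads are SDs over replicates, and intervals are Clopper-Pearson 95%. For a count of 0 the limit is 3 counts of the total. No test across genes was made. Of the 88 members, those bound in the conservative list are named. Unbound ones are named if bound in a replicate or among the 3 with the highest-ranked region of the conservative ranked regions. Also named are the 4 members next outside the 500 bp limit and the 4 with a symbol ending in L but no partner, which were chosen after their values were seen. Paralogs have a symbol that ends in L, with or without a digit, beside a gene with the same symbol without it. The members and lists were chosen with earlier results of these data known.

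Alternatives were distances of 200 and 1000 bp, overlap of peak and TSS, the first TSS alone, the nearest TSS alone, an IDR of 0.001, the other across-replicate lists, leaving out each replicate, ranking among all peaks, and promoters of 500 bp before to 100 bp after the TSS.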

Additional observations from a re-analysis of the deposited data

How the results depend on the processing

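With summits within 200 bp of a TSS, 7 members were bound in the conservative list (7.95%, all genes 9.97%), all of them primary genes, 3 of them in complex I. In all 3 replicates 3 members were bound, and 4.31% of all genes. With overlap of peak and TSS the counts were also 7, 3 and 3, and the share of members, 7.95%, was then above that of all genes, 7.11%. With the nearest TSS alone, 5 members were bound, all primary, with 3 in complex I, 1 in complex IV and 1 in complex V. The mean share per replicate was then 6.06% of members and 7.68% of all genes, and 1 member, ND-24, and 4.65% of all genes were bound in all 3 replicates. With an IDR of at most 0.001, 6 members were bound in the conservative list (6.82%, all genes 10.5%), all primary, with 1 in complex IV and 1 in complex V. The mean share per replicate was then 5.68%, against 7.52% of all genes. Counts at 1000 bp, with the first TSS alone and in the other across-replicate lists, 1 of which matched no replicate list, were within 1.5 times those reported, as were those without a replicate (mean share 9.66% to 11.4%, members bound in both remaining replicates 5 to 7). Complexes II and III and the paralogs, also with each symbol ending in L counted (an alternative chosen after seeing the data), had 0 bound members in each alternative run. The median percentile of member peaks was 45.8 to 54.7. In the longer promoter window 10 of 13 motif counts in bound members stayed within 1.5 times; motif 6 was then found in 4, GAGAG in 4 and GCCAT in 7. No paired analysis was possible because there is 1 group. The sizes of the complexes, 8 to 40 genes, limit what their shares can show.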

Other observations

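COX6B, the member that was bound in the conservative list but in no replicate, has an inverted repeat under its summit. The window printed above holds arms of 9 bases, agctgtcac and gtgacagct, with 1 base between them. Over windows of 50 bp on each side of the summit, an inverted repeat with arms of at least 9 bases and at most 3 bases between them was found in 1 of the 11 member peaks and in 21 of 1605 promoter peaks (1.31%). It was noticed on reading the sequence, so the count is a description.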
